A study of Bos taurus and Bos grunniens and Bubalus bubalis with 15 samples.

Results

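Pre-mRNA splicing factors were examined in longissimus dorsi, a back muscle, from Qinchuan cattle, from Qinghai yak and from Guangxi buffalo. The genes were chosen by a rule on symbols, with earlier results of these data known. Every probe set whose single gene symbol on the bovine array begins with SNRP, HNRNP, SRSF, SF3A, SF3B, U2AF or PRPF was taken. This gave 54 of 9155 genes named by 1 symbol, on 82 of 24016 probe sets. A probe set is a group of short probes read as 1 value, and where a gene had several the brightest over the 15 arrays stood for it. The 54 genes were 8 snRNP proteins, 2 U2AF subunits, 9 SF3A and SF3B subunits, 10 PRPF proteins, 9 SR proteins and 16 hnRNP proteins. Each of 5 groups had 3 arrays: intact male, castrated male and female Qinchuan cattle, yak, and buffalo, all slaughtered at 36 months. The labels describe the arrays of a group as biological replicates and do not give the sex of the yak or the buffalo. The cattle were of similar age and background and were reared alike, and the study screened for genes that differ between the sexes and between the 3 kinds of animal.

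Splicing removes introns from newly made transcripts and joins the exons. The U1 snRNP recognises the start of an intron, U2AF and the U2 snRNP with its SF3A and SF3B subunits recognise the branch point and the end, and the tri-snRNP of U4, U6 and U5, which holds many PRPF proteins, completes the spliceosome. SR proteins mostly promote and hnRNP proteins often oppose the use of a nearby exon. Skeletal muscle uses alternative splicing widely, for example in troponin T and titin transcripts.

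Values are array intensities, compared on the log2(intensity + 16) scale, so that a difference of 1 is about a doubling and low values are understated. limma was fitted to the 14409 probe sets whose mean lay above the 40th percentile, and "called" means a Benjamini-Hochberg adjusted p under 0.05 over all of them. Differences are given with their standard error (SE). Of the 54 genes 52 were tested. PRPF38A, at a mean intensity of 14.5, and PRPF39, at 49.4, were too dim. Of all genes, 8 of 10 muscle markers were on the array, and each had a mean at or above the 99.6th percentile. Median log2 intensity was 6.71 to 6.81 on every array, while mean intensity was 342 to 364 on the cattle arrays, 335 to 359 on the yak arrays and 304 to 313 on the buffalo arrays. The ratio of the 3′ to the 5′ actin control probe sets, a measure of RNA integrity, was 1.17 to 1.48 in cattle, 1.49 to 1.93 in yak and 1.42 to 1.73 in buffalo. Its part in the species differences was not tested. The array carries cattle sequence, so that weaker binding of yak or buffalo RNA and a lower RNA level cannot be told apart. The muscles are mixtures of cells, and fewer cells of a type and less RNA per cell cannot be told apart either.

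The splicing factor genes spread somewhat more within groups than all probe sets did. The median gene had a within-group standard deviation (SD) of 0.225 in log2 intensity and spanned 1.10 from its lowest to its highest array, beside 0.191 and 1.04 for all probe sets tested. Their median SD was above that of all probe sets in each of the 5 groups, from 0.15 beside 0.14 in females to 0.23 beside 0.16 in buffalo. The SR protein genes SRSF7, SRSF5, SRSF3 and SRSF1 varied most within groups, with SDs of 0.50, 0.45, 0.41 and 0.36. The U4/U6 snRNP component PRPF4 and the U2 snRNP protein SNRPA1 varied least, at 0.07 and 0.09. The median splicing factor gene lay between -0.20 and 0.19 of the cattle mean on every array, lowest on buffalo array 1 and highest on yak array 1.

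**Figure D1:**
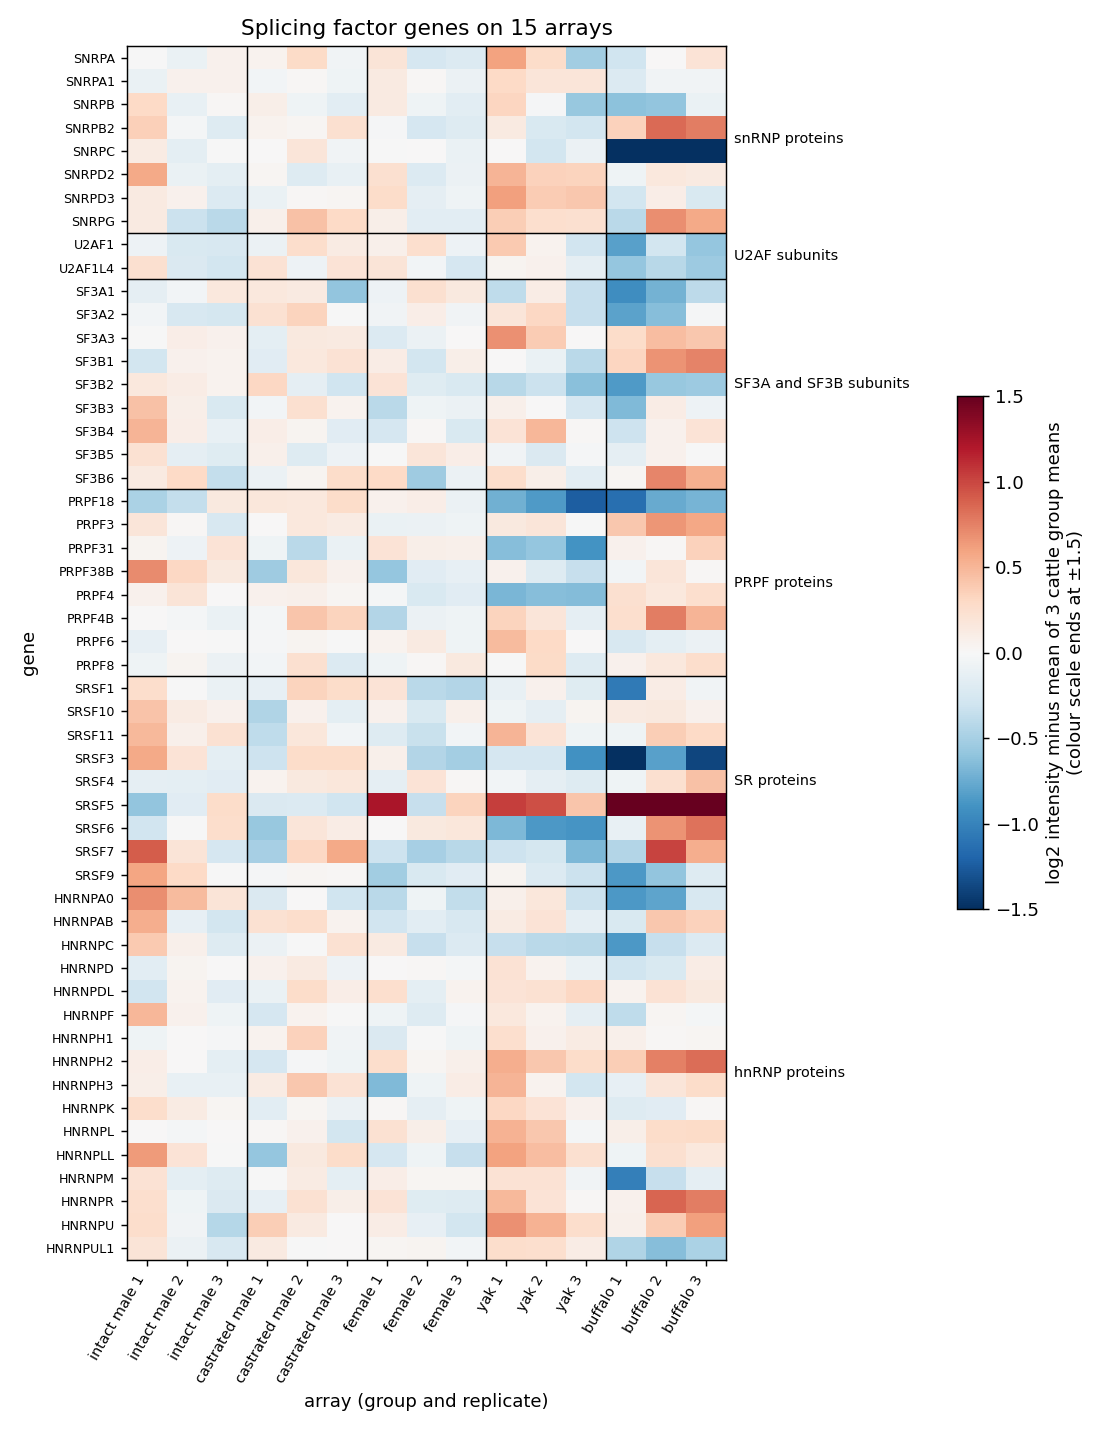
Log2 intensity of the 52 tested splicing factor genes (rows, by family) on 15 arrays (columns), each gene minus the mean of its 3 cattle group means; red is higher, blue lower, and the colours end at ±1.5. The colours reach the end of the scale for SNRPC (blue) and SRSF5 (red) on the 3 buffalo arrays, and for SRSF3 (blue) on buffalo array 1.

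Among the cattle, few differences of splicing factor genes between intact males, castrated males and females were called. Between castrated and intact males 0 of 52 were called by limma, where 1.46% of all probe sets were. 5 genes had an unadjusted p under 0.05, as against 20.5% of all probe sets. Between females and castrated males 0 were called, beside 0.0208% of all probe sets, and 2 had an unadjusted p under 0.05, beside 7.55%. Between females and intact males 1 gene was called, HNRNPA0, lower in females, or 1.92% beside 5.5% of all probe sets (3.37% lower); 4 had an unadjusted p under 0.05, beside 27.7%. The arrays of the groups did not overlap for 13.5% of the genes between castrated and intact males, beside 24.8% of all probe sets, for 17.3% between females and intact males, beside 33.1%, and for 21.2% between females and castrated males, beside 17.5%. The median differences of the 52 genes were -0.01, -0.11 and -0.07 in these 3 comparisons, and those of all probe sets 0, 0 and 0.01. The 95% confidence interval lay within a 2-fold change for 51 genes between castrated and intact males, for 50 between females and castrated males and for 46 between females and intact males.

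HNRNPA0 encodes an RNA-binding protein that binds AU-rich elements in the transcripts of inflammatory genes. Its brightest probe set read 694, 587 and 482 in intact males, 360, 424 and 339 in castrated males, and 313, 400 and 321 in females. All 3 intact males were above all 6 other cattle. The female value was lower by limma, with a log2 difference of -0.74 (SE 0.17, adjusted p = 0.0434). The difference of castrated from intact males was -0.62 (SE 0.17, adjusted p = 0.107), not past the threshold, and without intact male 3 it was -0.75 (adjusted p = 0.0414). Of the gene's other 2 probe sets, 1 was also lower in females, at -0.60 (SE 0.12, adjusted p = 0.0293), and the other gave -0.33 (SE 0.20, adjusted p = 0.308). For castrated against intact males these 2 probe sets gave -0.36 (SE 0.12, adjusted p = 0.147) and 0.12 (SE 0.20, adjusted p = 0.770), so that 1 went the other way. The call in females was lost without any 1 of 8 of the 9 cattle arrays, all but intact male 3, with adjusted p up to 0.135. It was also lost on the mean of the 3 probe sets (-0.56, adjusted p = 0.0637).

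Markers of other cells moved with the same comparison. The 12 macrophage markers tested summed to intensities from 6396 up to 32440 on the intact male arrays, from 2629 up to 4271 on those of castrated males, and from 1434 up to 2623 on those of females. The 10 fibroblast and matrix markers summed to 32960 up to 44660, 11710 up to 12470, and 8829 up to 10780 in the same order. No marker of either list was at 0. In females against intact males 8 of the 12 macrophage and 9 of the 10 matrix markers were called lower, and in castrated against intact males 0 and 7. Of all probe sets 3.37% were called lower in females, and 1.46% were called in either direction in castrated males. All 12 macrophage markers had an unadjusted limma p under 0.05 in castrated against intact males, beside 20.5% of all probe sets. Their median log2 difference there was -1.71. The part of these cells in the HNRNPA0 difference was not tested.

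The next smallest p-values were those of genes that did not pass the threshold. SRSF9, an SR protein, read 1323, 1084 and 873 in intact males and 606, 745 and 778 in females (log2 difference -0.60, SE 0.18, adjusted p = 0.0724). PRPF38B, a relative of a tri-snRNP protein, gave -0.68 (SE 0.22, adjusted p = 0.0920) on its brightest probe set. Its second probe set gave -0.23 (SE 0.19, adjusted p = 0.457). SRSF9 was called without intact male 3 (-0.75, adjusted p = 0.0230) and with array weights (-0.52, adjusted p = 0.0324), and PRPF38B with a fit on all 15 arrays (-0.68, adjusted p = 0.0403). On the brightest probe sets of both genes every female was below every intact male, and the castrated males reached into the intact range. SNRPG, a ring protein of the snRNP core, read 1339, 972 and 919 in intact males and 1294, 1656 and 1508 in castrated males (0.47, SE 0.18, adjusted p = 0.187), and the groups overlapped. It was called with array weights (0.63, adjusted p = 0.0307). The other genes with the smallest p between castrated and intact males were SF3A2 (0.37), PRPF18 (0.44) and SRSF10 (-0.39), and between females and intact males SRSF11 (-0.45) and SRSF7 (-0.69). Without intact male 3, PRPF18 was called between castrated and intact males (0.63, adjusted p = 0.0307). Between females and castrated males they were PRPF4B (-0.44), PRPF31 (0.31), HNRNPH3 (-0.45), HNRNPAB (-0.41) and SNRPG (-0.35), all with adjusted p of 0.595 or above.

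**Figure D2:**
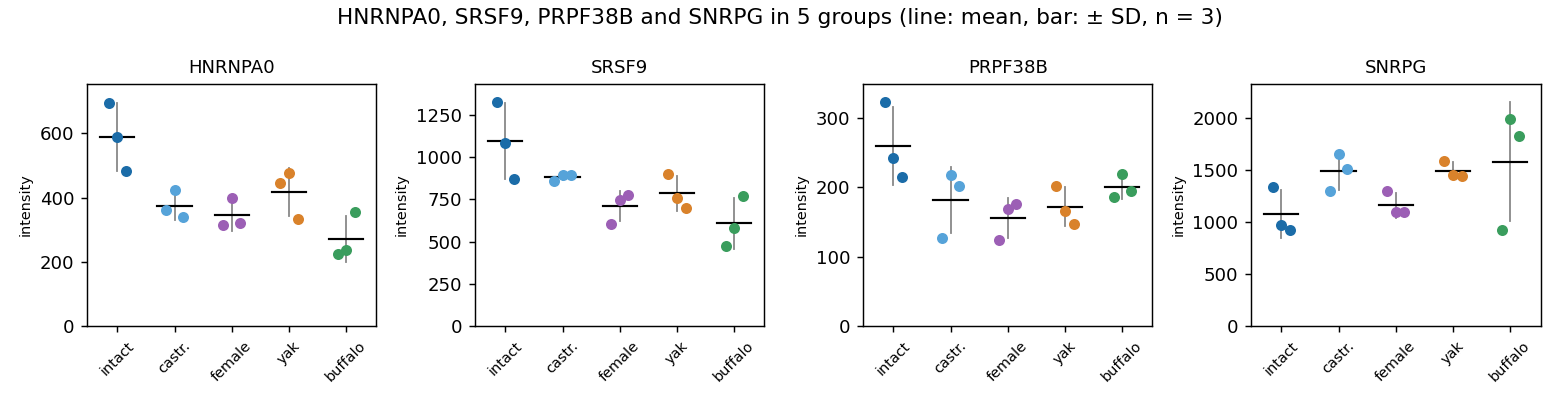
Array intensity (linear, axes from 0) of 4 splicing factor genes in the 5 groups; points are arrays, lines means and bars ± SD of 3 arrays, and "castr." is castrated male. HNRNPA0 is above 480 in the intact males and below 425 in the other cattle; the other 3 genes did not pass the threshold between cattle groups in the unweighted fit on all 9 cattle arrays.

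Between species more differences were called, most of them under 2-fold. Against the 9 cattle arrays, taken as the mean of the 3 group means, yak had 9 of 52 genes called, 4 higher and 5 lower, or 17.3% beside 29.1% of all probe sets (13.2% higher, 15.9% lower). Buffalo had 23 called, 9 higher and 14 lower, or 44.2% beside 51.4% (23% higher, 28.4% lower). The groups did not overlap for 9 genes in yak, or 17.3% beside 19.3% of all probe sets, and for 12 in buffalo, or 23.1% beside 32%. The yak count was 4 without yak 1, 15 with each array centred on its median and 19 with arrays weighted by quality. Of all probe sets 4189 were called in yak after centring, beside 4196 as deposited. Calls over all probe sets were not counted without yak 1 or with array weights, so those gene counts have no share to stand beside. Called genes at least 2-fold apart were 0 in yak and 3 in buffalo: SNRPC, SRSF3 and SRSF5. Differences of at least 2-fold made up 0% of the genes in yak, beside 5.48% of all probe sets, and 5.77% in buffalo, beside 12.7%. The median size of the difference, sign aside, was 0.18 in yak, beside 0.22 for all probe sets, and 0.35 in buffalo, beside 0.32. The yak and buffalo comparisons share their cattle arrays, so their values are set side by side.

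The balance of directions depended on the scaling of the arrays. After quantile normalisation, which gives every array the same distribution of values, buffalo had 23 genes higher and 7 lower, and yak 7 higher and 5 lower. With each array centred on its median, buffalo had 9 higher and 14 lower, and yak 10 higher and 5 lower. The share of higher values among all called probe sets moved as well. In buffalo it was 44.8% as deposited, 55.8% after quantile normalisation and 42.6% after centring. For the called splicing factor genes it was 39.1%, 76.7% and 39.1%. In yak it was 45.4%, 52.8% and 53% for all called probe sets, and 44.4%, 58.3% and 66.7% for the called splicing factor genes. All 9 yak calls and 16 of the 23 buffalo calls were made in the same direction under all 3 scalings, and 0 genes were called in opposite directions. The buffalo calls outside those 16 were HNRNPC, HNRNPM, HNRNPUL1, SF3A2, SNRPB, SRSF9 and U2AF1, all lower as deposited and not called after quantile normalisation.

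**Figure D3:**
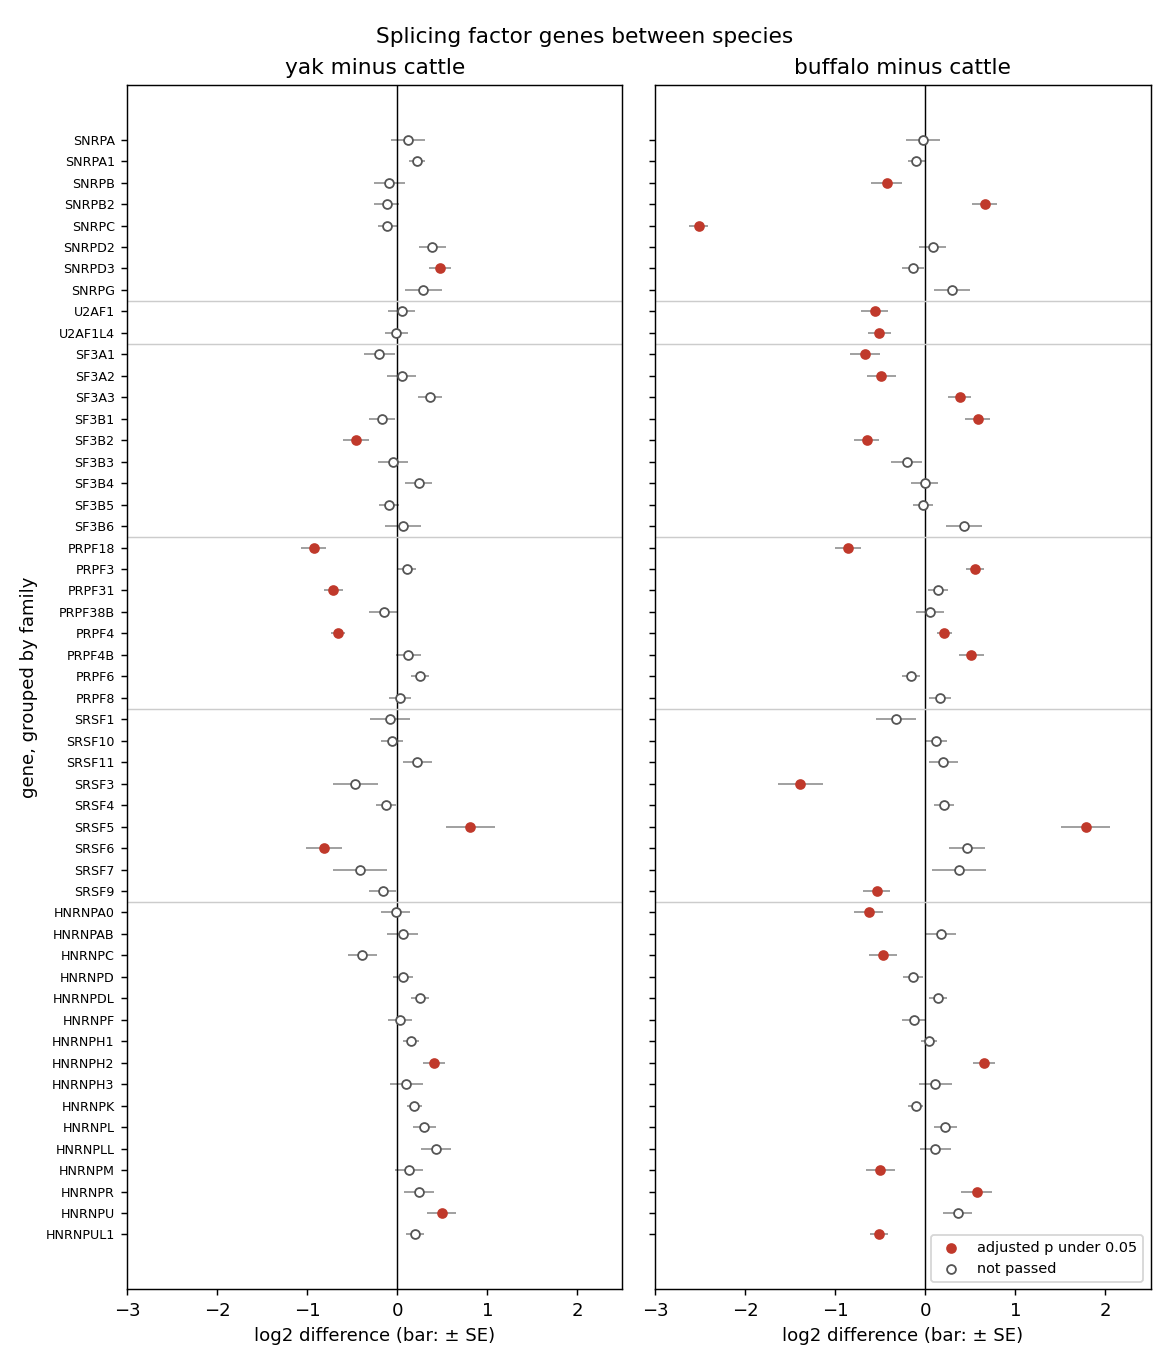
Log2 difference of 52 splicing factor genes (rows, by family) between yak and cattle (left) and buffalo and cattle (right), with bars of ± SE; red points have a limma adjusted p under 0.05. The points lie within about a 2-fold change, except SNRPC at -2.52, SRSF3 at -1.39 and SRSF5 at 1.78 in buffalo.

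The snRNP proteins sit on the small nuclear RNAs. The largest difference among them was that of SNRPC, the U1 snRNP protein that steadies the pairing of U1 with the start of the intron. It read 197, 222 and 178 in buffalo, 1218, 1000 and 1135 in yak, and 1088 to 1369 in cattle, with a median of 1201. Buffalo stood clear of all 12 other arrays, at a log2 difference from cattle of -2.52 (SE 0.11, adjusted p = 1.68e-09 by limma), a 5.72-fold lower value, while yak and cattle overlapped (-0.11, SE 0.11, adjusted p = 0.441). The gene has 1 probe set, so no other probe set bears on this value.

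SNRPB2, a U2 snRNP protein, went the other way in buffalo. It read 1586, 2236 and 2116 there, 1358, 1051 and 1022 in yak and 1036 to 1587 in cattle. The lowest buffalo value touched the highest cattle value, and the difference was 0.66 (SE 0.14, adjusted p = 0.00175). Its close relative SNRPA of the U1 snRNP gave -0.03 (SE 0.19, adjusted p = 0.914).

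Of the proteins of the Sm ring, SNRPD3 was higher in yak, at 1496, 1266 and 1282 beside 831 to 1176 in cattle. The groups did not overlap, and the difference was 0.47 (SE 0.12, adjusted p = 0.0127). Without yak 1 it was 0.39 (adjusted p = 0.0854). In buffalo it was -0.14 (SE 0.12, adjusted p = 0.375). SNRPB was lower in buffalo, at -0.43 (SE 0.17, adjusted p = 0.0489), with overlapping values. That call was lost without either of buffalo 1 (-0.34) and buffalo 2 (-0.35), or without any cattle array but intact male 2, and with array weights (-0.34, adjusted p = 0.102). In all, 1 of the 8 snRNP genes was called in yak and 3 in buffalo, beside 29.1% and 51.4% of all probe sets.

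Both U2AF genes on the array were called lower in buffalo, beside 28.4% of all probe sets. U2AF1, the small subunit that reads the AG at the end of an intron, had 741, 1087 and 872 beside 1113 to 1580 in cattle. U2AF1L4, its paralog, had 230, 259 and 236 beside 288 to 418. In neither gene did buffalo overlap with cattle, and the differences were -0.56 (SE 0.15, adjusted p = 0.00715) and -0.51 (SE 0.13, adjusted p = 0.00459). In yak they were 0.05 and -0.01, and neither was called. After quantile normalisation U2AF1 in buffalo gave -0.26 (adjusted p = 0.116), and without buffalo 1 -0.43 (adjusted p = 0.0521).

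The SF3A and SF3B subunits clamp the U2 snRNP to the branch point. SF3B2 was lower in both species: it read 375, 403 and 322 in yak, 275, 337 and 345 in buffalo and 410 to 633 in cattle. Every yak and buffalo array lay below every cattle array, with differences of -0.46 (SE 0.14, adjusted p = 0.0257) and -0.65 (SE 0.14, adjusted p = 0.00162). With cattle as castrated males and females only, the yak difference was -0.40 (adjusted p = 0.0673), and it was not called without yak 1 (-0.48) or yak 3 (-0.37).

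The SF3A subunits split in buffalo. SF3A1 read 205, 242 and 306 beside 263 to 480 in cattle (-0.67, SE 0.17, adjusted p = 0.00561), and SF3A3 read 463, 531 and 511 beside 327 to 426 (0.38, SE 0.13, adjusted p = 0.0243). SF3A3 did not overlap with cattle, and SF3A1 did. The SF3A3 call was lost without buffalo 2 (0.34, adjusted p = 0.0949) or buffalo 3 (0.37, adjusted p = 0.0774). SF3B1, the subunit that contacts the branch point and is mutated in some leukaemias, read 771, 987 and 1041 beside 506 to 722 (0.58, SE 0.14, adjusted p = 0.00458), with no overlap. The other subunits SF3B3, SF3B4, SF3B5 and SF3B6 were called in neither species. SF3A2 was called lower in buffalo (-0.49, SE 0.16, adjusted p = 0.0237), and was not called without buffalo 1 (-0.33) or buffalo 2 (-0.41). Its probe sets disagreed, as did those of SF3B1.

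Of the 8 tested PRPF genes 3 were lower and 0 higher in yak, beside 15.9% and 13.2% of all probe sets. PRPF4 read 159, 164 and 164 in yak, 316, 297 and 318 in buffalo and 224 to 306 in cattle. Yak lay below all other arrays by a narrow spread of its own, at -0.66 (SE 0.08, adjusted p = 6.02e-05). Buffalo overlapped with cattle and was called higher, at 0.21 (SE 0.08, adjusted p = 0.0323). The buffalo call was lost without female 2, female 3, buffalo 1 or buffalo 3, with a difference of 0.20 to 0.21 each time and adjusted p up to 0.104. This was the 1 gene called in both species in opposite directions.

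PRPF31, the protein that bridges U4/U6 and U5 and whose loss causes a retinal degeneration, read 203, 212 and 166 in yak, 341, 331 and 416 in buffalo and 243 to 379 in cattle. Yak was below every cattle array (-0.71, SE 0.11, adjusted p = 0.000588), and buffalo was not called (0.14, SE 0.11, adjusted p = 0.304). PRPF18, a factor of the second splicing step, read 164, 148 and 109 in yak, 119, 158 and 165 in buffalo and 196 to 343 in cattle. Both species were below every cattle array, at -0.93 (SE 0.14, adjusted p = 0.000485) and -0.86 (SE 0.14, adjusted p = 0.000242). Second probe sets of these 2 genes did not show the same.

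PRPF3, of the U4/U6 snRNP, was higher in buffalo, at 339, 406 and 384 beside 211 to 286 in cattle (0.55, SE 0.10, adjusted p = 0.000460), with no overlap. PRPF4B, a kinase bound to the tri-snRNP, was also called higher there (0.51, SE 0.14, adjusted p = 0.00784), with overlap, but not without buffalo 2 (0.38, adjusted p = 0.0636). PRPF8, the core protein of U5, PRPF6 and PRPF38B were called in neither species against cattle on their brightest probe sets. PRPF8 gave 0.03 in yak and 0.16 in buffalo (both SE 0.12).

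Among the SR proteins were the largest differences after SNRPC. Of the 9 genes 1 was called higher and 1 lower in yak, and 1 higher and 2 lower in buffalo. Of all probe sets 29.1% were called in yak and 51.4% in buffalo. SRSF5 read 1187, 1086 and 861 in buffalo, 614, 587 and 396 in yak and 188 to 704 in cattle, with a median of 250. Buffalo was above every other array. Yak overlapped with cattle through female 1, at 704, and female 3, at 370, was the next highest cattle value. The differences were 1.78 (SE 0.27, adjusted p = 0.000105) in buffalo, a 3.42-fold higher value, and 0.81 (SE 0.27, adjusted p = 0.0351) in yak. The yak call was lost without either yak 1 (0.70, adjusted p = 0.157) or yak 2 (0.73, adjusted p = 0.138), without intact male 2, castrated male 2, castrated male 3 or female 3 (0.80 to 0.82, adjusted p up to 0.0539), and with castrated males and females only (0.73, adjusted p = 0.0798).

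SRSF6, a paralog of SRSF5, was lower in yak, at 310, 269 and 265 beside 333 to 607 in cattle, with no overlap (-0.81, SE 0.20, adjusted p = 0.00883). In buffalo it read 467, 809 and 894 (0.46, SE 0.20, adjusted p = 0.0698). It was called higher there without buffalo 1 (0.74, adjusted p = 0.00632), after quantile normalisation (0.70, adjusted p = 0.00756), with array weights (0.52) and with the replicate number as a block (0.46, adjusted p = 0.0365). SRSF4, the closest other relative of both, was called in neither, at -0.13 (SE 0.11) in yak and 0.21 (SE 0.11) in buffalo. In buffalo it was called higher after quantile normalisation (0.49, adjusted p = 0.00107) and without buffalo 1 (0.34, adjusted p = 0.0240).

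SRSF3, which also couples splicing to mRNA export, read 339, 786 and 525 in buffalo, 1169, 1169 and 734 in yak and 970 to 2072 in cattle. Buffalo lay below every cattle array, at -1.39 (SE 0.25, adjusted p = 0.000415), a 2.62-fold lower value, and yak gave -0.47 (SE 0.25, adjusted p = 0.172). Its paralog SRSF7 read 729, 2016 and 1456 in buffalo and 696 to 1879 in cattle. These overlapped widely, and the difference was 0.37 (SE 0.30, adjusted p = 0.313), with a 95% interval from -0.27 to 1.01. Without buffalo 1 it was 0.78 and called (adjusted p = 0.0417), and without buffalo 2 it was 0.05. SRSF9 was lower in buffalo (-0.54, SE 0.15, adjusted p = 0.00959), with overlap, and its paralog SRSF1 was not called (-0.33, SE 0.22, adjusted p = 0.216). With castrated males and females only, SRSF9 gave -0.40 (adjusted p = 0.0601), and without buffalo 1 -0.39 (adjusted p = 0.0733).

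**Figure D4:**
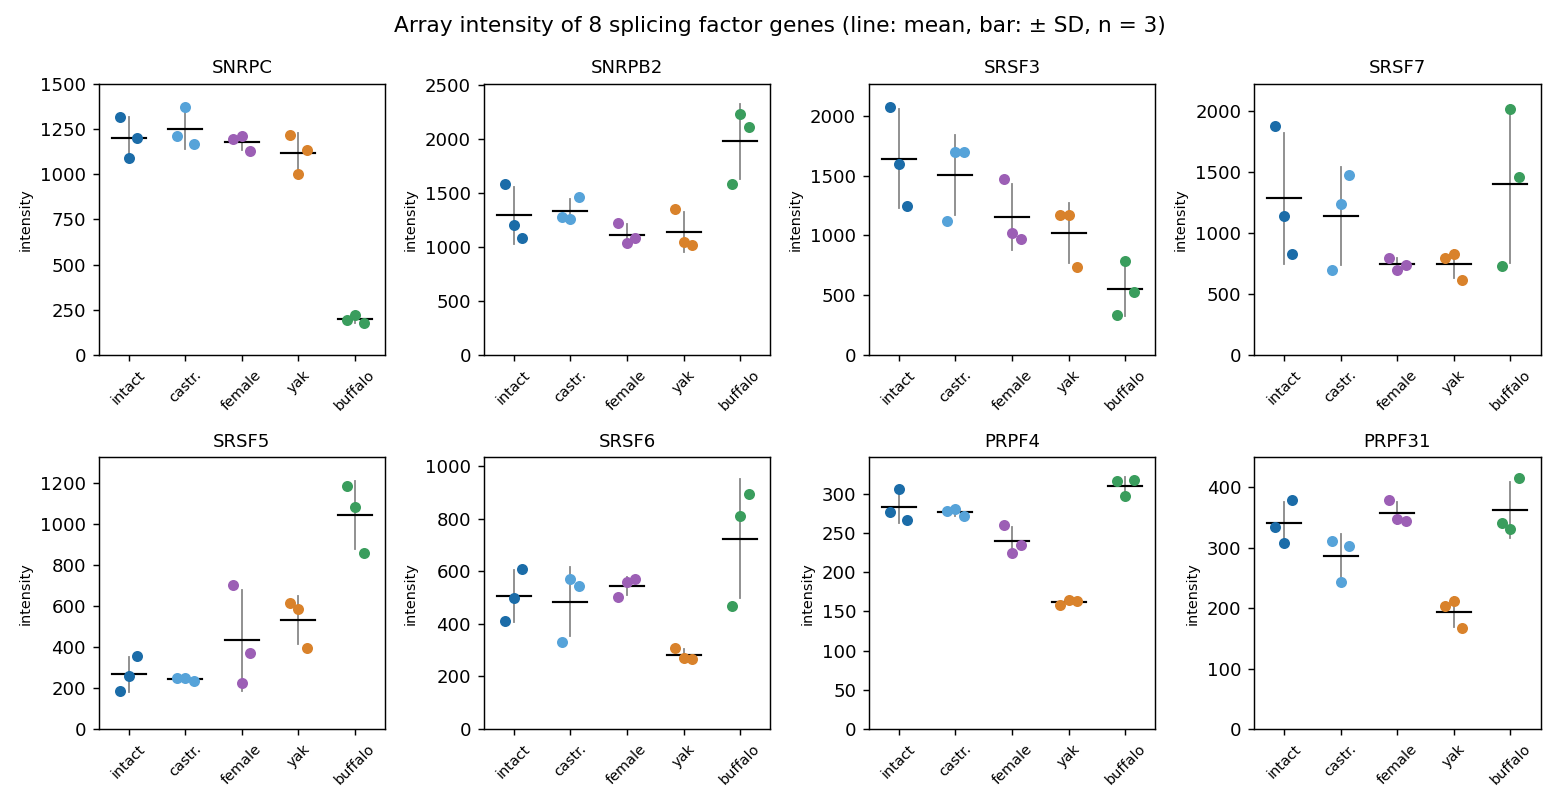
Array intensity (linear, axes from 0) of 8 splicing factor genes in the 5 groups; points are arrays, lines means and bars ± SD of 3 arrays, and "castr." is castrated male. SNRPC in buffalo sits between 178 and 222 with every other array near or above 1000, SRSF5 is highest in buffalo, and SRSF6, PRPF4 and PRPF31 are lowest in yak.

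The hnRNP proteins coat new transcripts. Of their 16 genes 2 were called higher in yak and 0 lower, and in buffalo 2 higher and 4 lower, which became 8 higher and 1 lower after quantile normalisation. Of all probe sets 13.2% were higher and 15.9% lower in yak, and 23% and 28.4% in buffalo. After quantile normalisation 55.8% of all probe sets called in buffalo were higher. HNRNPH2, of the group that binds runs of G, was higher in both species: it read 791, 715 and 647 in yak, 693, 913 and 971 in buffalo and 446 to 644 in cattle. No yak or buffalo array reached down into the cattle range, although the closest were 647 and 644, and the differences were 0.41 (SE 0.12, adjusted p = 0.0218) and 0.65 (SE 0.12, adjusted p = 0.000544). The yak call was lost without yak 1 (0.34, adjusted p = 0.126) or yak 2 (0.41, adjusted p = 0.0770). Its relatives HNRNPH1, HNRNPH3 and HNRNPF were not called in either species and lay between -0.13 and 0.15. After quantile normalisation HNRNPH1 (0.33, adjusted p = 0.0117) and HNRNPH3 (0.39, adjusted p = 0.0482) were called higher in buffalo, and HNRNPF gave 0.15.

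HNRNPU, a scaffold protein of nuclear RNA, was higher in yak, at 2210, 1956 and 1635 beside 1007 to 1765 in cattle (0.49, SE 0.16, adjusted p = 0.0340). The groups overlapped, and the call was lost without yak 1 (0.39, adjusted p = 0.178) or yak 2 (0.48, adjusted p = 0.114), and without castrated male 2, castrated male 3, female 2 or female 3 (0.46 to 0.49, adjusted p up to 0.0564). In buffalo HNRNPU gave 0.36 (SE 0.16, adjusted p = 0.0747). It was called higher there after quantile normalisation (0.66, adjusted p = 0.00164), with array weights (0.45, adjusted p = 0.0151), without buffalo 1 (0.50, adjusted p = 0.0357) and without intact male 1 (0.42, adjusted p = 0.0284). Its relative HNRNPUL1 read 1003, 881 and 987 in buffalo beside 1168 to 1574 in cattle, with no overlap (-0.52, SE 0.10, adjusted p = 0.000762), but its probe sets disagreed.

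The other hnRNP calls in buffalo came with overlapping groups. HNRNPA0 was lower (-0.63, SE 0.16, adjusted p = 0.00502), as were HNRNPM (-0.50, SE 0.16, adjusted p = 0.0174) and HNRNPC, which binds runs of U (-0.47, SE 0.16, adjusted p = 0.0227). HNRNPR was higher (0.57, SE 0.17, adjusted p = 0.0147). Without buffalo 1 HNRNPM gave -0.24 and HNRNPC -0.28, and HNRNPR gave 0.42 without buffalo 2 and 0.47 without buffalo 3, none of them called. With castrated males and females only as the cattle, HNRNPA0 gave -0.40 (adjusted p = 0.0643). Beside the buffalo comparison 7 of 12 macrophage and 9 of 10 matrix markers were called lower, and beside the yak comparison 5 and 8. Of all probe sets 23% were called higher and 28.4% lower in buffalo, and 13.2% and 15.9% in yak. Of 8 muscle markers 1 was higher and 5 lower in buffalo, with a median of -0.31, and 0 higher and 2 lower in yak, with a median of -0.01. Of 7 adipocyte markers 2 were higher and 3 lower in buffalo, and 0 higher and 3 lower in yak, with medians of -0.55 and -1.56. The part of these markers' cells in the species differences was not tested.

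Buffalo and yak were also compared directly. Of the 52 genes 19 were called, 7 higher in buffalo and 12 lower, or 36.5% beside 42.2% of all probe sets (19.5% higher, 22.7% lower). The groups did not overlap for 18 genes, or 34.6% beside 55.2%. The count was 10 without yak 1 and 12 without yak 2, and calls over all probe sets were not counted in those settings. After quantile normalisation 13 were higher and 3 lower. Of the called genes 36.8% were higher as deposited and 81.2% after it, beside 46.3% and 53.9% of all called probe sets. SNRPC was lower in buffalo by limma (-2.40, SE 0.13, adjusted p = 3.08e-08). SRSF6 (1.27, SE 0.24, adjusted p = 0.00110), SRSF5 (0.96, SE 0.33, adjusted p = 0.0290), PRPF4 (0.87, SE 0.09, adjusted p = 1.10e-05), PRPF31 (0.85, SE 0.14, adjusted p = 0.000307), SNRPB2 (0.78), SF3B1 (0.75) and PRPF3 (0.44) were the 7 higher in buffalo, and in all 7 the 2 groups did not overlap. Beside SNRPC, the genes lower in buffalo with no overlap were HNRNPUL1 (-0.73), HNRNPM (-0.63), SNRPD3 (-0.61), U2AF1L4 (-0.51), PRPF6 (-0.41), SNRPA1 (-0.32) and HNRNPK (-0.31). SRSF3 (-0.92), U2AF1 (-0.61), HNRNPA0 (-0.61) and SF3A2 (-0.54) were lower with overlap. The calls of HNRNPA0, HNRNPK, HNRNPM, PRPF6, SF3A2, SNRPA1, SRSF3, SRSF5, U2AF1 and U2AF1L4 were each lost without at least 1 yak or buffalo array. Under all 3 scalings 10 of the 19 were called: the 7 higher genes, SNRPC, HNRNPUL1 and PRPF6. On the mean of a gene's probe sets SF3B1 (0.29, adjusted p = 0.0951), PRPF31 (0.25, adjusted p = 0.0815), HNRNPUL1 (-0.22, adjusted p = 0.270), HNRNPA0 (-0.44) and SF3A2 (-0.22) were not called, and HNRNPK gave 0.03. Conversely, SRSF7 (1.19, adjusted p = 0.0136) and SRSF4 (0.47, adjusted p = 0.0131) were called higher in buffalo without buffalo 1. Between these species all 8 muscle markers were called, 2 higher and 6 lower in buffalo, and their part was not tested.

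For 14 genes several probe sets were tested, and these bear on how far 1 probe set speaks for its gene. In the cattle comparisons the probe sets of a gene had the same sign in 10 of 14 genes for castrated against intact males and in 11 of 14 in the other 2 comparisons. In yak they did in 7 of 14 and in buffalo, against cattle, in 4 of 14. The median gap between the probe sets of a gene was 0.18 for females against intact males, 0.22 for yak and 0.38 for buffalo. In none of the 6 comparisons was any of the 14 genes called in 1 direction by all of its probe sets.

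In buffalo the probe sets of 4 genes were called in opposite directions. For PRPF18 the second probe set read 215 to 317 in buffalo beside 149 to 223 in cattle, at 0.46 (SE 0.12, adjusted p = 0.00641), against -0.86 on the brightest. A second HNRNPUL1 probe set was called higher, at 0.56 (SE 0.13, adjusted p = 0.00243), and the remaining one gave 0.18, against -0.52 on the brightest. A second SF3A2 probe set was higher, at 0.32 (SE 0.07, adjusted p = 0.00119), against -0.49. Of the 4 SF3B1 probe sets 2 were called higher (0.58 and 0.42), 1 was called lower (-0.29, SE 0.11, adjusted p = 0.0427) and 1 gave 0.40 (adjusted p = 0.0738). On the mean of a gene's probe sets, PRPF18 (-0.20), HNRNPUL1 (0.07) and SF3A2 (-0.08) were not called in buffalo.

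In yak the second probe sets of PRPF18 and PRPF31 gave 0.20 (SE 0.12, adjusted p = 0.238) and 0.16 (SE 0.08, adjusted p = 0.167), beside -0.93 and -0.71 on the brightest. Between buffalo and yak the PRPF31 probe sets were called in opposite directions, at 0.85 and -0.35 (SE 0.10, adjusted p = 0.0143). For HNRNPA0 in buffalo the 3 probe sets lay on 1 side: 2 were called lower, at -0.63 and -0.78 (SE 0.09, adjusted p = 1.69e-05), and the other gave -0.45 (adjusted p = 0.156). Some dimmer probe sets were called by limma where the brightest was not. In yak they were those of SRSF1 (0.51, adjusted p = 0.0307), HNRNPUL1 (0.41, adjusted p = 0.0267) and SF3A2 (0.22, adjusted p = 0.0220). In buffalo, against cattle, they were those of HNRNPLL (-0.69, adjusted p = 0.00474), HNRNPK (0.29, adjusted p = 0.0497) and PRPF8 (0.22, adjusted p = 0.0379). Between buffalo and yak they were those of HNRNPLL (-1.05, adjusted p = 0.00163, beside -0.32 on the brightest) and PRPF8 (0.30, adjusted p = 0.0285). Which part of a transcript each probe set reads was not analysed here.

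**Figure D5:**
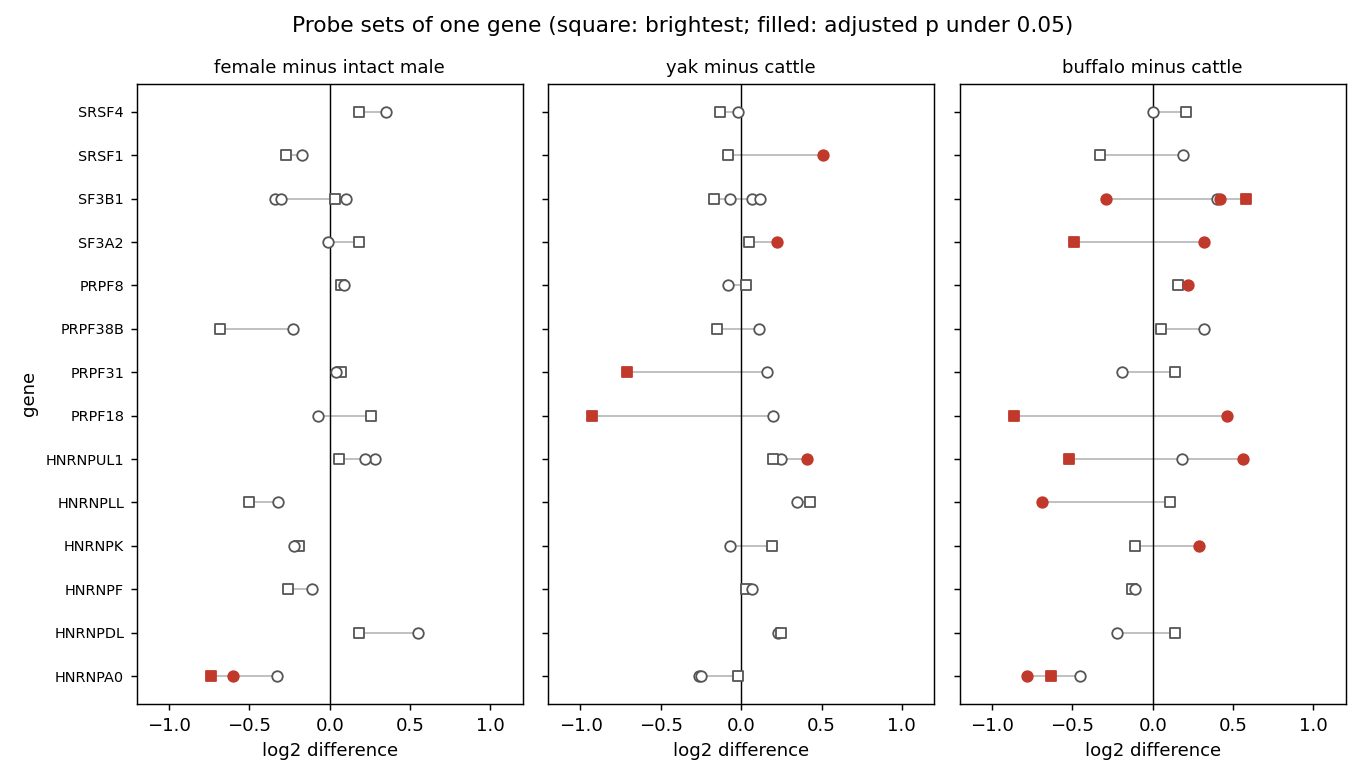
Log2 differences given by each tested probe set of the 14 splicing factor genes with several, for females against intact males, yak against cattle and buffalo against cattle; squares are the brightest probe set of a gene, and filled symbols have a limma adjusted p under 0.05. The median gap between symbols of a gene is 0.18 in the cattle comparison and 0.38 in buffalo, though not every gene follows this. In buffalo PRPF18, HNRNPUL1, SF3A2 and SF3B1 have filled symbols on both sides of 0.

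Other genes of the splicing pathway were taken from 7 lists, with 105 genes tested. Each was read on its brightest probe set alone. Neither their other probe sets nor the alternative scalings and sets of arrays were examined for these genes. In cattle 24 of them had an unadjusted p under 0.05 between castrated and intact males, beside 20.5% of all probe sets, 27 between females and intact males, beside 27.7%, and 5 between females and castrated males, beside 7.55%. After adjustment 1 was called in a cattle comparison: RBM38, an RNA-binding protein of muscle differentiation, higher in females than in intact males (1537 ± 160 against 849 ± 159, SD, n = 3; log2 difference 0.85, SE 0.17, adjusted p = 0.0286 by limma). It was also higher in yak than in cattle (1.08, SE 0.15, adjusted p = 0.000281) and lower in buffalo (-1.03, SE 0.15, called by limma). It belongs to the list of muscle and tissue splicing regulators, of which 6 of 20 were higher and 2 lower in yak, and 4 higher and 8 lower in buffalo. For this and each list that follows, the shares of all probe sets are 13.2% higher and 15.9% lower in yak, and 23% higher and 28.4% lower in buffalo. CELF1, a regulator of developmental splicing in muscle, was higher in yak (1.84, SE 0.25, adjusted p = 0.000176), and SFPQ was higher in buffalo (1.57, SE 0.16, adjusted p = 4.71e-06).

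Next came proteins that work with the snRNPs. Of 9 LSm proteins and U6 partners 2 were higher and 0 lower in yak, and 1 higher and 3 lower in buffalo. LSM1, of the cytoplasmic ring that acts in mRNA decay, was higher in both (0.84, SE 0.17, adjusted p = 0.00249, and 1.54, SE 0.17, adjusted p = 6.65e-06). Of 35 other spliceosome proteins 9 were higher and 2 lower in yak, and 8 higher and 9 lower in buffalo. PHF5A, which sits in the SF3B complex, was lower in buffalo (-1.04, SE 0.12, adjusted p = 9.71e-06). Of 8 snRNP assembly proteins 0 were called in yak (3 had an unadjusted p under 0.05), and 3 were higher and 2 lower in buffalo. WDR77, of the methylosome that modifies Sm proteins, was lower in buffalo (-1.91, SE 0.18, adjusted p = 2.05e-06).

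Of 7 splicing kinases and phosphatases 1 was higher and 1 lower in yak, and 3 higher and 0 lower in buffalo. SRPK3, the muscle kinase of SR proteins, was lower in yak (-0.42, SE 0.12, adjusted p = 0.0168) and higher in buffalo (0.44, SE 0.12, adjusted p = 0.00709). Of 14 exon junction complex and export genes 0 were higher and 4 lower in yak, and 2 higher and 4 lower in buffalo. MAGOHB, an exon junction core protein, was lower in yak (-0.68, SE 0.10, adjusted p = 0.000399) and higher in buffalo (1.03, SE 0.10, adjusted p = 2.97e-06). Of 12 genes of 3′ end processing 4 were higher and 0 lower in yak, and 4 higher and 1 lower in buffalo. CLP1 was higher in both (0.85, SE 0.11, adjusted p = 0.000136, and 0.67, SE 0.11, adjusted p = 0.000221).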

How the data were processed

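RNA of 15 muscle samples had been extracted with Trizol, and biotin-labelled cRNA hybridised to Affymetrix bovine arrays, per the labels' protocols. The deposited intensity values are linear, 1 per probe set; neither their summarisation nor their normalisation by the authors is stated in the labels or headers used here. The deposited values were used with 16 added before log2, without further normalisation. Control probe sets (112) and those below the 40th percentile of mean log2 intensity (6.42) were left out, which left 14409. R 4.3.3 and limma 3.58.1 (lmFit, eBayes with an intensity trend) gave two-sided tests, Benjamini-Hochberg adjusted over all probe sets of a comparison. The 3 cattle comparisons were fitted on 9 arrays and the species comparisons on 15. The number of arrays limits the precision: for 3 against 3 arrays the smallest exact permutation p is 0.1, so single genes rest on limma's pooled spread. The script was tested on simulated data.

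Symbols came from the platform table; all 54 gene identifiers matched the current RefSeq table (ARS-UCD2.0) and 0 symbols changed. A pair of probe sets shared with another gene (2) was left out. The members and lists were chosen with earlier results of these data known. Genes were named by rule: called members whose groups do not overlap, up to 12 each way; the 5 smallest p where fewer than 5 were called; close paralogs of called members; members with opposed probe sets; and up to 3 called genes per other list and comparison. Other called members were added after their values were seen. Alternatives were another added value, filter, scaling, trend, array weighting, probe set summary, set of arrays and replicate block. No sequences are shown.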

Additional observations from a re-analysis of the deposited data

How the results depend on the processing

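Of 52 named calls, 19 kept their direction and their side of the threshold in every alternative, and 26 in every alternative that kept all arrays. As deposited the median difference of the splicing factor genes was 0.05 for buffalo against cattle and -0.11 for buffalo against yak. That of all probe sets was -0.03 and 0.01. After quantile normalisation the splicing factor genes gave 0.23 and 0.11, and all probe sets 0.06 and 0.06. HNRNPF (0.15) and SNRPA (0.04) then turned positive in buffalo against cattle, and HNRNPU (0.14) in buffalo against yak. Centring each array gave 15 yak calls. Array weights gave 1 call for castrated against intact males, 2 for females against intact males and 19 for yak, and turned SNRPA in buffalo to 0.05. The mean of all probe sets gave 0 calls for females against intact males and turned HNRNPUL1 in buffalo against cattle to 0.07 and HNRNPK in buffalo against yak to 0.03. A fit on all 15 arrays gave 2 calls for females against intact males. The cause of these changes was not tested. Beyond the scalings, calls over all probe sets were not counted.

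With each array left out in turn, the calls numbered 0 to 2 for castrated against intact males, 0 to 2 for females against intact males, 4 to 12 for yak, and 10 to 20 for buffalo against yak, whose median ran from -0.20 to 0.04. Against cattle, HNRNPF in yak ran from -0.04 to 0.10, HNRNPH3 in yak from -0.11 to 0.28, SRSF1 in buffalo from -0.55 to 0.03 and SNRPA in buffalo from -0.15 to 0.11. Between buffalo and yak, HNRNPU ran from -0.26 to 0.01 and SNRPA from -0.46 to 0.10. None of these genes was called in those comparisons.

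With the replicate number as a block, 0, 1 and 0 genes were called between castrated and intact males, females and intact males, and females and castrated males, 10 in yak and 23 in buffalo against cattle, and 18 between buffalo and yak. Whether the numbers pair the arrays could not be decided from deviations within groups of 3 arrays. Those of same-numbered cattle arrays correlated at -0.12 to 0.14 (median 0.07), over 0.1 in 3 of 9 pairs. Those of differently numbered cattle arrays correlated at -0.22 to 0.24 (median 0), over 0.1 in 1 of 18 pairs. Over the arrays of all groups the medians were 0 and 0.01, with 6 of 30 and 11 of 60 pairs over 0.1. Groups of 3 arrays limit what could be called: for all 52 genes tested the interval of the difference was within a 2-fold change in 51, 46 and 50 genes in the cattle comparisons and in 48, 46 and 40 in the species comparisons. Genes below the intensity filter were not tested, and the values are those of 1 probe set per gene.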
